A study of Mus musculus with 10 samples.

Results

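The genes described here are 10 chaperone genes of heart muscle, chosen by name from the 23337 genes of the count table. They are 7 small heat-shock protein genes (Hspb1, Hspb2, Hspb3, Hspb6, Hspb7, Hspb8 and Cryab), the co-chaperone gene Bag3, the myosin chaperone gene Unc45b and the muscle methyltransferase gene Smyd1. All 10 were in the table and all 10 passed the filter on low counts. Poly(A) RNA was sequenced in 10 samples of sorted mouse cardiomyocytes on postnatal day 14, per the labels. The knockout group held 5 samples with both Actn2 alleles floxed (Actn2-FF), and the heterozygote group held 5 samples with 1 floxed and 1 normal allele (Actn2-F+). Every animal, the heterozygotes included, had been given AAV9-cTNT-Cre on postnatal day 1, a virus in which a cardiac troponin T promoter drives Cre, so that recombination is directed to cardiomyocytes and depends on which cells the virus reached. The heterozygotes therefore carry Cre and the loss of 1 allele too, and a group without Cre is not analysed here. The labels number the samples without saying that each is a separate mouse. They are called animals below, and if some share a source, the p-values measure only the spread between these samples.

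Small heat-shock proteins bind partly unfolded proteins through a shared alpha-crystallin domain and hold them in a soluble state without using ATP. In heart muscle they gather at the Z-disc and along the thin and titin filaments, where contraction unfolds proteins mechanically. BAG3 couples one of them, HSPB8, to the ATP-driven chaperone HSP70 and passes worn Z-disc proteins such as filamin C to autophagy. UNC45B folds the myosin head together with HSP90, and SMYD1 is a methyltransferase of the myofibril and nucleus needed to assemble thick filaments. ACTN2, the product of the gene targeted here, crosslinks actin at the same Z-disc. The comparison asks how transcripts of the chaperones that serve this structure stand when the Actn2 transcript is reduced. These data hold RNA only, so the amount of ACTN2 protein is not known from them.

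The start-site regions of 4 genes are shown because Bag3 and Hspb7 were the members that passed the test, Hspb1 varied together with Bag3, and Hspb8 encodes the partner of BAG3. They are the RefSeq windows of build GRCm38.p6, from 250 bases before to 50 bases after the first transcribed base, written 5′ to 3′ on the gene's strand. Capitals mark each match to GAANNTTC, a core of the heat-shock element bound by heat-shock factors. The windows lie at chr7:128523333-128523632 on the plus strand (Bag3), chr5:135887669-135887968 on the plus strand (Hspb1), chr5:116422815-116423114 on the minus strand (Hspb8) and chr4:141420529-141420828 on the plus strand (Hspb7).
Bag3: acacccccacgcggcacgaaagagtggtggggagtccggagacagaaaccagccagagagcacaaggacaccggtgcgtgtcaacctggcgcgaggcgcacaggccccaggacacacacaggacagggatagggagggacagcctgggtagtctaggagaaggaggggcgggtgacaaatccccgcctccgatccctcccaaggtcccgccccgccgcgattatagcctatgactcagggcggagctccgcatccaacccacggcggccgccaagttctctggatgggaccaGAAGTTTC
Hspb1: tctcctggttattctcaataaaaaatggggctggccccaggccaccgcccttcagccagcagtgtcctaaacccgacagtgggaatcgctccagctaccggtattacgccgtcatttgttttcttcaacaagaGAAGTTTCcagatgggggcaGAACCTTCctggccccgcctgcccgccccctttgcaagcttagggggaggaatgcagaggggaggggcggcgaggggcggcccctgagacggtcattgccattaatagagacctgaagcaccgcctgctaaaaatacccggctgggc
Hspb8: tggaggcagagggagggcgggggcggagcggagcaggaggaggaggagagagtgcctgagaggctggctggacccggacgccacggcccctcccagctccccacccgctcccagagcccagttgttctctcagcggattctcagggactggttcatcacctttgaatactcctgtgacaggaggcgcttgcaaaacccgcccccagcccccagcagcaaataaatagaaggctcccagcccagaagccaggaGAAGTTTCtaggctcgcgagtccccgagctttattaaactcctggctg
Hspb7: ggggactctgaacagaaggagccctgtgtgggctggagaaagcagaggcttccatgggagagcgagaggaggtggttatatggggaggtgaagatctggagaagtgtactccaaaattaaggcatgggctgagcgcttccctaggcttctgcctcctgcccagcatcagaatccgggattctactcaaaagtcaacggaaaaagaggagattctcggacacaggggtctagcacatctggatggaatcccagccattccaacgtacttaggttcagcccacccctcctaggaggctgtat

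Bag3 and Hspb8 each held the same 8 letters, GAAGTTTC, downstream of the first transcribed base, starting at position 42 and at position 2 when that base is position 0. Hspb1 held 2 matches before its start, GAAGTTTC at -117 and GAACCTTC at -97. Hspb7 held none. The table of windows matched 8 of the 10 genes with 9 windows, since Hspb6 has 2, and Hspb2 and Cryab were not matched. Either spacing of the element (GAANNTTC or TTCNNGAA, both strands) was found in 5 of these 9 windows, against 15.1% of the 32851 windows in the table. The further matches were GAAGTTTC at -120 in Hspb6 and GAATTTTC at -224 in Hspb3. The CArG box of SRF was found in 0 of the 9 (1.63% of all windows), the MEF2 box in 1, that of Hspb3 (3.19% of all windows), and the E-box CANNTG in 5 (72.3%). Members and windows are few, and a match of letters is a description of the window, not of binding.

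The targeted gene and the cell markers were read first. Actn2 lay at 2677 to 3474 CPM in the heterozygotes and 1145 to 1286 CPM in the knockouts (log2 fold change -1.39, SE 0.0910, edgeR adjusted p 3.48e-07). Totals ran from 8086656 to 25237696 counts per sample, the largest in heterozygote 1. The 9 cardiomyocyte markers summed to 112586 to 144381 CPM in the heterozygotes and 108294 to 134298 in the knockouts. Of these 9, Mybpc3 was called higher (log2 fold change 0.43, edgeR adjusted p 0.0117). Tnni3 (-0.53, adjusted p 0.00165) and Atp2a2 (-0.40, adjusted p 0.0243) were called lower, and 6 were not called. That is 33.3% of the list called, against 18.9% of all tested genes. The 10 endothelial markers, all of them detected, summed to 504 to 803 and 342 to 569 CPM. All 10 had negative estimates (median log2 fold change -0.46) and an unadjusted p below 0.05, and 2 of them, Egfl7 and Cldn5, were called lower. Fibroblast (296 to 489 and 271 to 592 CPM, 7 genes), smooth muscle or pericyte (439 to 669 and 522 to 672 CPM, 6 genes) and leukocyte markers (8.06 to 18.2 and 3.96 to 7.41 CPM, 6 of 7 in the table) summed to far less than those of cardiomyocytes. The leukocyte sum was lower in every knockout than in any heterozygote. Its 3 tested genes had negative estimates. Of them Csf1r was called lower (4.61 and 2.51 CPM, log2 fold change -0.86, edgeR adjusted p 0.0216) and 2 were not called. Among the smooth muscle or pericyte markers, Abcc9 made up most of the sum (388 and 324 CPM). Cspg4 rose from 37.0 to 132 CPM (log2 fold change 1.84, edgeR adjusted p 1.23e-06), and the other 5 had negative estimates that were not called. The 7 skeletal muscle markers summed to 3632 to 5674 and 2028 to 2302 CPM. Nearly all of that was Ckm, muscle creatine kinase, which the heart also expresses (4274 and 2145 CPM, edgeR log2 fold change -0.995, adjusted p 4.12e-05). Myod1, Myf5 and Pax7 were at 0 counts, and Myog, Myh4 and Actn3 averaged 0.148 CPM or less in each group. Their part in the results was not tested beyond the endothelial covariate.

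Of the 10 genes, 2 were called in the knockout, both higher and 0 lower, which is 20% of the members against 18.9% of the 11870 tested genes. By direction, 10.2% of all tested genes were called higher and 8.64% lower (edgeR's quasi-likelihood test, Benjamini-Hochberg adjusted p below 0.05 over all genes). The share of members called thus lay near the background. Their median log2 fold change was 0.31, beside 0.0023 over all tested genes. Of the 10 estimates 8 were above 0, where 5966 of the 11870 tested genes were. At an unadjusted p below 0.05 there were 5 members, all higher, where 3841 of the 11870 tested genes reached it in either direction. DESeq2 and voom also called 0 lower. The groups were apart, with no overlap, in 1 member, which was higher in the knockout. Over all genes 8.41% were apart in that direction and 6.32% in the other. Levels below are normalised read counts in CPM (counts scaled to a common library total after TMM scaling), given for animals 1 to 5 of each group in order.

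**Figure D1:**
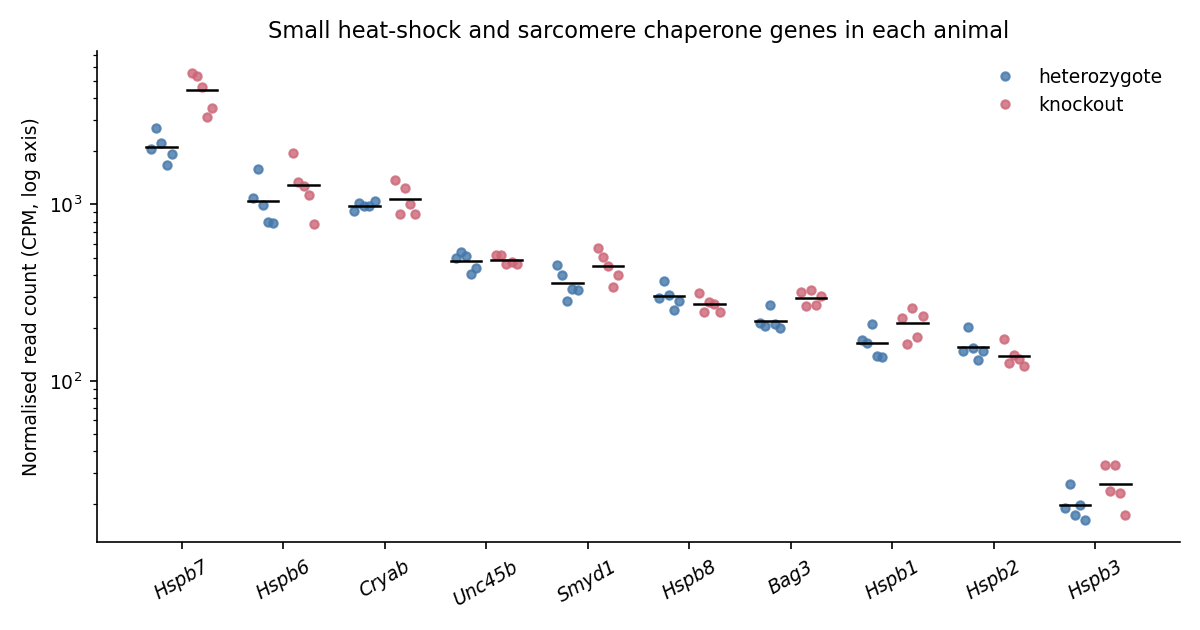
Normalised read count (CPM, log axis) of the 10 chaperone genes in each of 5 heterozygotes (blue) and 5 knockouts (red), genes ordered by mean CPM, with black bars at the group means. For Hspb7 the lowest knockout (3141 CPM) lies above the highest heterozygote (2697 CPM), and for the other 9 genes the groups overlap.

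Hspb7, a small heat-shock protein gene of heart and skeletal muscle whose product binds filamin C and titin and limits thin filament length, roughly doubled. It lies on chromosome 4 at 141420779 to 141425310 (mm10, plus strand, 3 exons). Its level was 2059, 2697, 2244, 1680 and 1939 CPM in the heterozygotes and 5551, 5358, 4657, 3141 and 3515 CPM in the knockouts. Every knockout lay above every heterozygote, with knockouts 4 and 5 nearest to them. The means were 2124 ± 380 and 4444 ± 1080 CPM (SD, n = 5 each), which is 2.09-fold (1.07 on the log2 scale, with SE 0.164, 95% interval 0.71 to 1.42 and an edgeR adjusted p of 0.000479). Of all tested genes, 3.98% had a larger change in size. Leaving out any 1 of the 10 animals kept Hspb7 called, at 0.98 to 1.17. With the mean of 10 endothelial markers as a covariate it was 0.96 (adjusted p 0.0236). In bulk RNA, a change per cell cannot be told apart from a change in which cells were collected.

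Cryab and Hspb2 are neighbours on chromosome 9 that are read in opposite directions, with 403 bases between the first transcribed bases (Cryab 50752758 to 50756633, plus strand, and Hspb2 50751072 to 50752354, minus strand). Cryab encodes alphaB-crystallin, which protects desmin and titin. It stood at 913, 1016, 976, 982 and 1040 CPM in the heterozygotes, a spread of 4.90% of the mean, and at 1366, 882, 1245, 1007 and 883 CPM in the knockouts, a spread of 20.4%. Knockouts 1 and 3 were above all heterozygotes and knockouts 2 and 5 below all of them, so that the groups overlapped from both sides. The difference was not called (log2 fold change 0.13, SE 0.121, 95% interval -0.13 to 0.39, edgeR adjusted p 0.509), and the estimate ran from 0.03 without knockout 1 to 0.19 without knockout 5.

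Hspb2, which encodes a binding protein of myotonic dystrophy kinase, stood at 147, 203, 153, 130 and 147 CPM in the heterozygotes and 172, 126, 140, 132 and 121 CPM in the knockouts. These ranges overlap, and the change was not called (log2 fold change -0.17, SE 0.129, 95% interval -0.45 to 0.10, edgeR adjusted p 0.384), and the estimate ran from -0.26 without knockout 1 to -0.06 without heterozygote 2. Set against each other within each animal, the ratio of Hspb2 to Cryab was 0.133 to 0.200 in the heterozygotes and 0.112 to 0.142 in the knockouts. The mean log2 ratio was lower by 0.28 in the knockout (difference -0.28, exact two-sided permutation p = 0.0397, adjusted over 2 ratios 0.0397, n = 5 each). That call was lost in 7 of the 10 repeats that left out 1 animal, with adjusted exact permutation p up to 0.0794, those without heterozygote 1, 2 or 3 and those without knockout 1, 3, 4 or 5.

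Hspb6 encodes HSP20, a target of protein kinase A that binds actin-associated proteins. It was the most variable member, with a spread of 31.0% of the mean in the heterozygotes and 32.9% in the knockouts. Its level was 1088, 1585, 993, 795 and 789 CPM in the heterozygotes and 1944, 1331, 1266, 1136 and 774 CPM in the knockouts, so that the highest value was in knockout 1 and the lowest in knockout 5. The difference was not called (log2 fold change 0.30, SE 0.224, 95% interval -0.18 to 0.78, edgeR adjusted p 0.396), and the estimate ran from 0.10 without knockout 1 to 0.50 without heterozygote 2. On chromosome 7 (30553302 to 30555439) it ends 2 bases from Lin37, which is read from the other strand, and no exon sequence is shared.

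Hspb1 encodes HSP27 (HSP25 in mice), which caps and stabilises actin filaments. It was measured at 171, 164, 211, 139 and 137 CPM in the heterozygotes and 227, 163, 259, 176 and 232 CPM in the knockouts. Knockouts 1, 3 and 5 exceeded all heterozygotes, and knockout 2 lay below 3 of them. The difference missed the threshold (log2 fold change 0.36, SE 0.148, 95% interval 0.05 to 0.68, edgeR adjusted p 0.102), and without heterozygote 3 it passed it (0.47, adjusted p 0.0315).

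Hspb3, a small heat-shock gene with a single exon that pairs with HSPB2 in muscle, was the least abundant member (136 to 453 counts per sample). It lies on chromosome 13 at 113662896 to 113663676, far from Actn2 on the same chromosome (12269427 to 12340732). Heterozygotes had 19.03, 26.2, 17.4, 19.8 and 16.2 CPM and knockouts 33.3, 23.8, 33.4, 23.0 and 17.3 CPM, with knockouts 1 and 3 above all others. The difference was not called (log2 fold change 0.40, SE 0.184, 95% interval 0.01 to 0.80, edgeR adjusted p 0.146) except without knockout 5 (0.53, adjusted p 0.0475).

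**Figure D2:**
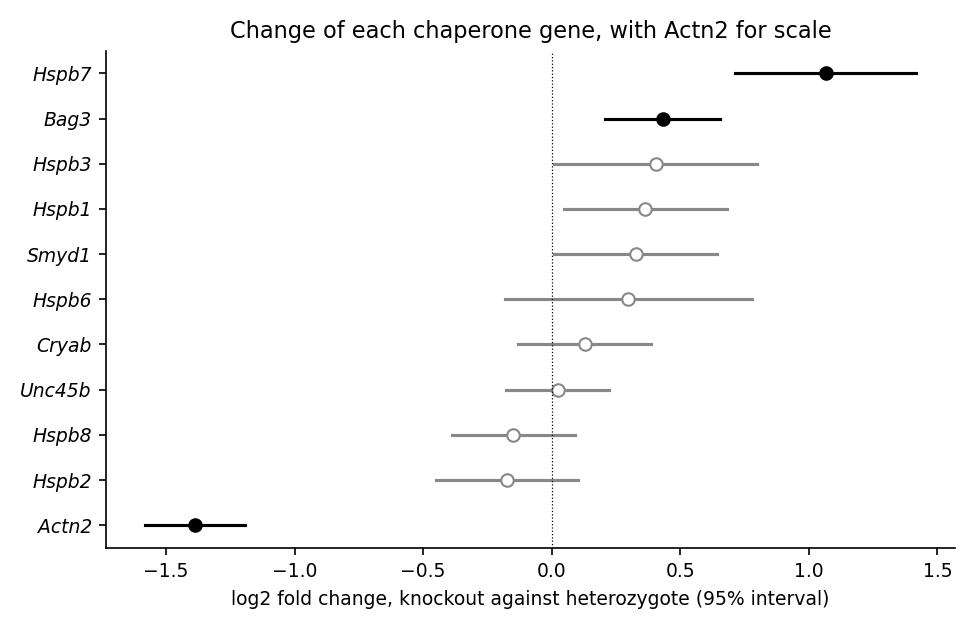
log2 fold change, knockout against heterozygote, of the 10 chaperone genes and of Actn2, with 95% intervals of the edgeR fit that are not adjusted for the number of genes. Filled points passed the adjusted threshold (Hspb7, Bag3 and Actn2), and the intervals of Hspb1, Hspb3 and Smyd1 lie just above 0 although their adjusted p-values do not pass.

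Bag3 and Hspb8 encode the partners of the chaperone-assisted autophagy complex and differed in their change. Bag3 (chromosome 7, 128523583 to 128546979, 4 exons) stood at 213, 205, 269, 210 and 200 CPM in the heterozygotes and at 320, 265, 326, 268 and 303 CPM in the knockouts. The groups met only in heterozygote 3, which was above knockouts 2 and 4. The means were 220 ± 28.3 and 296 ± 28.4 CPM (SD, n = 5 each), a rise of 1.35-fold (log2 fold change 0.43, SE 0.104, 95% interval 0.21 to 0.66, edgeR adjusted p 0.00987). Bag3 was called in all 10 fits that left out 1 animal, with 0.51 without heterozygote 3 (adjusted p 0.00216). With the endothelial covariate it was 0.40 and not called (adjusted p 0.142), where 927 genes were called in all.

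Hspb8 stood at 293, 370, 308, 250 and 282 CPM in the heterozygotes and 314, 246, 280, 271 and 245 CPM in the knockouts, which overlap. Its difference was not called (log2 fold change -0.15, SE 0.112, 95% interval -0.39 to 0.09, edgeR adjusted p 0.390), and the estimate ran from -0.21 without heterozygote 4 to -0.06 without heterozygote 2. Within each animal, the ratio of Bag3 to Hspb8 was 0.554 to 0.876 in the heterozygotes and 0.990 to 1.24 in the knockouts, without overlap. The difference in the mean log2 ratio was 0.58 (exact two-sided permutation p = 0.00794, which is the lowest value possible with 5 against 5, adjusted 0.0159), a 1.49-fold shift. It kept its call when any 1 animal was left out.

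Unc45b and Smyd1 serve myosin and the thick filament. Unc45b was the steadiest of the 10 between the groups, at 498, 534, 509, 406 and 435 CPM in the heterozygotes and 515, 515, 459, 473 and 461 CPM in the knockouts. All knockouts lay inside the heterozygote range (log2 fold change 0.02, SE 0.0934, 95% interval -0.18 to 0.22, edgeR adjusted p 0.892), and the sign changed with upper-quartile scaling. It shares exon sequence with 1700003F17Rik, and reads of the shared part are left out by the default settings of the counting. Smyd1 stood at 453, 398, 283, 332 and 329 CPM in the heterozygotes and 564, 501, 449, 340 and 397 CPM in the knockouts, with knockouts 1 and 2 above all heterozygotes. The difference was not called (log2 fold change 0.33, SE 0.148, 95% interval 0.01 to 0.64, edgeR adjusted p 0.143).

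To compare levels between genes, CPM were divided by the annotated exon length. In the heterozygotes, Cryab (831 ± 40.7 CPM per kb, SD, n = 5), Hspb6 (792 ± 246) and Hspb7 (767 ± 137) were the most abundant members and did not differ beyond their spread. Hspb2 (186 ± 32.6), Hspb1 (182 ± 33.4) and Hspb8 (166 ± 24.4) formed a second level, also within their spread. Unc45b (134 ± 15.1), Smyd1 (107 ± 19.8) and Bag3 (84.7 ± 10.9) followed, each within reach of the next, and Hspb3 (25.3 ± 4.93) was far below. In the knockouts Hspb7 came first at 1606 ± 390 CPM per kb, above Hspb6 (974 ± 320) and Cryab (909 ± 185).

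The make-up of the small heat-shock transcripts differed accordingly. Hspb7 made up 25.9% ± 1.08 of the summed CPM per kb of the 7 genes in the heterozygotes (24.2% to 27.1%) and 39.4% ± 4.59 in the knockouts (33.6% to 46.3%). The shares of Hspb2 (6.28% ± 0.234 and 4.10% ± 0.483) and Hspb8 (5.63% ± 0.124 and 3.76% ± 0.563) were lower in every knockout than in any heterozygote. Shares add to a fixed total, so a larger Hspb7 share lowers the others by itself. The sum of the 7 genes was 2950 ± 453 CPM per kb in the heterozygotes and 4070 ± 853 in the knockouts. Without Hspb7 the sums were 2183 ± 318 and 2464 ± 537, which differ by less than the spread. These shares and sums are given without a test.

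**Figure D3:**
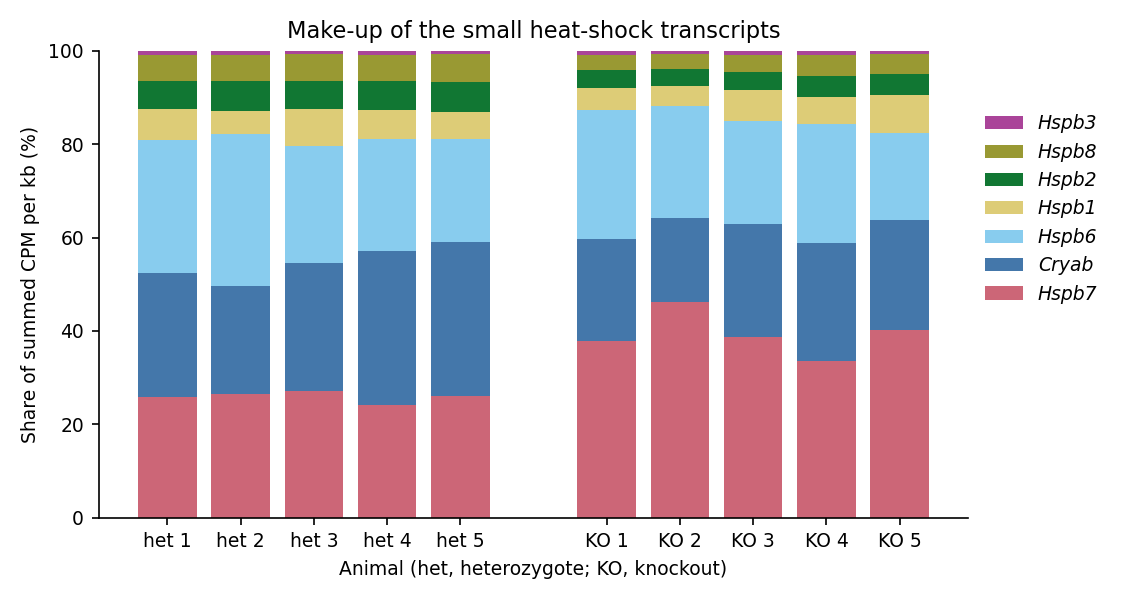
Share (%) of each small heat-shock gene in the summed CPM per kb of the 7 genes, 1 bar per animal, heterozygotes left and knockouts right. The Hspb7 part at the foot of each bar is 24.2% to 27.1% in heterozygotes and 33.6% to 46.3% in knockouts.

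Among animals of the same genotype, most members varied in the same direction. Deviations of log2 CPM from the group mean were compared over the 10 animals, and 44 of the 45 pairs of members had a positive Pearson r (median 0.45, -0.13 to 0.97). The closest pair was Hspb2 and Hspb8 (r = 0.97), joined by Hspb6 (0.88 with Hspb2 and 0.84 with Hspb8). Hspb1 and Bag3 formed a second pair (r = 0.91), while Bag3 had r of 0.39 or less with the other members. Hspb2 and Cryab, although neighbours, reached 0.63. All values of an animal share a library and its scaling, so these r are a description and carry no test. Pairs of other genes were not compared in this way, so the r are not shown to be particular to these members.

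**Figure D4:**
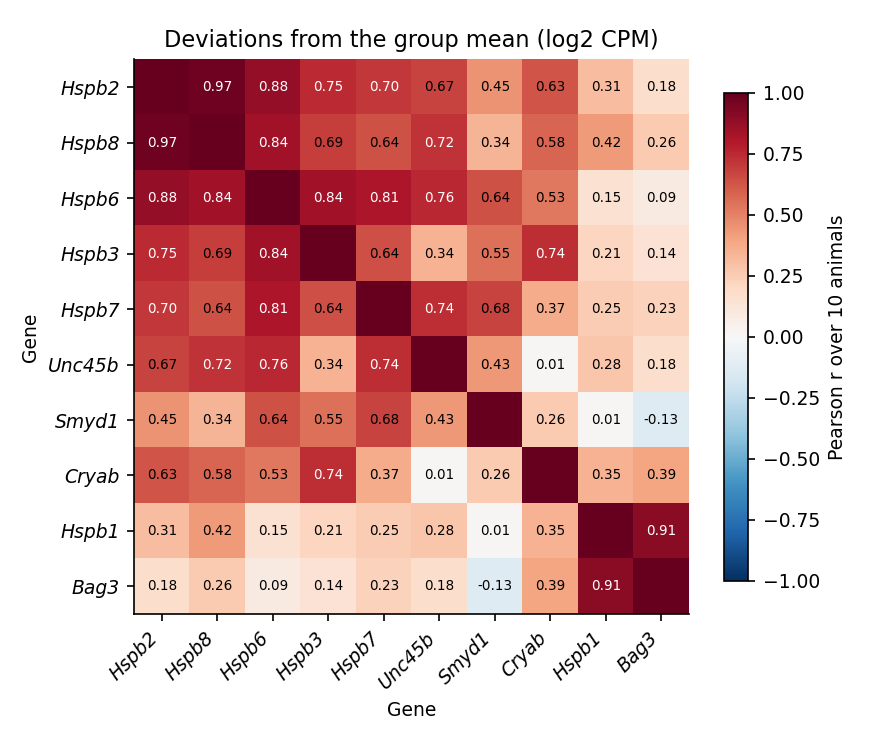
Pearson r between the 10 chaperone genes of the deviations of log2 CPM from the genotype mean, over 10 animals. Hspb2, Hspb8, Hspb6, Hspb3 and Hspb7 form a block of positive values at the upper left (0.64 to 0.97), and Hspb1 with Bag3 (0.91) stands at the lower right.

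Among 8368 other genes, each averaging 10 CPM or more, St3gal2 (r = 0.94) and Ppip5k1 (0.93) deviated most like Hspb7, and Nin (0.96) and Trio (0.95) most like Bag3. Each was picked as the highest of 8368 values over 10 animals, a choice that by itself favours a high r. No test was made of them. St3gal2 (log2 fold change 1.05, edgeR adjusted p 8.58e-05) and Trio (0.72, adjusted p 0.00249) were also called higher in the knockout, and Ppip5k1 (0.03, adjusted p 0.906) and Nin (0.16, adjusted p 0.501) were not called. Ppip5k1 shares exon sequence with Mtap1a.

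The rest of the chaperone system was described from 8 lists of 84 genes, of which 81 were tested. In all, 6 were called higher and 10 lower, 19.8% of those tested, with a median log2 fold change of -0.02. Among the 4 remaining genes of the small heat-shock family, Cryaa and Odf1 had 0 counts in all 10 samples, where 3 counts would be 0.119 to 0.371 CPM. Hspb9 had 0 to 6 counts per sample, and Hspb11, the only 1 tested, was not called (log2 fold change -0.03, edgeR adjusted p 0.943).

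Cytosolic HSP70 and HSP110 genes, the ATP-driven partners of the small heat-shock proteins, had 3 of 11 called higher and 1 lower. Over all tested genes, 10.2% were called higher and 8.64% lower. Hspa1l, an HSP70 gene best known from testis, had 5.08, 8.72, 10.1, 6.66 and 3.25 CPM in the heterozygotes and 39.1, 28.4, 33.0, 29.0 and 29.3 CPM in the knockouts. Every knockout was above every heterozygote (2.26 on the log2 scale, SE 0.234, edgeR adjusted p 1.76e-05). Hspa1l lies 547 bases from Hspa1a, with no shared exon sequence. Hspa4l (0.38, adjusted p 0.0356) and Hsph1 (0.31, adjusted p 0.0456), both nucleotide exchange factors of HSP70, rose by less, and Hspa12b, an endothelial HSP70 relative, fell by 0.53 (adjusted p 0.0257). When 1 animal was left out, the calls of Hspa4l, Hsph1 and Hspa12b held in 4, 3 and 5 of 10 fits. The constitutive Hspa8 stood at 529 and 551 CPM (log2 fold change 0.06, adjusted p 0.783). The near-identical inducible genes Hspa1a and Hspa1b varied from 2.44 to 99.0 CPM and from 3.11 to 123 CPM between animals of both genotypes and were not called (edgeR adjusted p 0.497 and 0.688). Reads that fit both copies are left out by the default settings of the counting, so these values are uncertain.

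Among the other cytosolic co-chaperones, 16.7% of HSP40 genes, 25% of BAG and HSP70 cofactor genes and 15.4% of HSP90 genes were called, near the 18.9% of all tested genes. Among 12 HSP40 genes, Dnaja4 was called higher (log2 fold change 0.36, edgeR adjusted p 0.0217), although it lost its call without knockout 1, 2 or 3 (adjusted p up to 0.0648), and Dnaja2 was called lower (-0.32, adjusted p 0.0157). Among 8 genes of BAG proteins and HSP70 cofactors, Bag1 fell by 0.37 on the log2 scale (adjusted p 0.0168). Stub1, the ubiquitin ligase CHIP that works with BAG3, fell by 0.40 (adjusted p 0.0415), held in 2 of 10 fits that left out 1 animal, and shares exon sequence with Jmjd8. Among 13 genes of HSP90 and its cofactors, the inducible Hsp90aa1 rose from 64.6 ± 14.7 to 103 ± 15.7 CPM (n = 5, SD), or by 0.67 on the log2 scale (edgeR adjusted p 0.00587), and Fkbp4, an HSP90 immunophilin, fell from 459 ± 130 to 295 ± 36.2 CPM (-0.64, adjusted p 0.0119). Hsp90ab1, the constitutive form, was not called (0.0049, adjusted p 0.9746).

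Of 8 mitochondrial chaperone genes, 5 were called lower and 0 higher, where 8.64% of all tested genes were called lower. The median log2 fold change was -0.38. Hspe1, Grpel2 and Clpb were not called, and with the endothelial covariate 1 of the 8, Hspd1, stayed called. Hspd1, which encodes HSP60, stood at 354 ± 25.5 CPM in the heterozygotes and 241 ± 18.2 CPM in the knockouts (n = 5 each, SD), without overlap. That is a difference of -0.55 on the log2 scale (SE 0.0878, edgeR adjusted p 0.000608). Grpel1 (-0.52, adjusted p 0.00616) and Dnaja3 (-0.47, adjusted p 0.0108), cofactors of mitochondrial HSP70, were lower too. Hspa9, that HSP70 itself (-0.46, adjusted p 0.00244), and Trap1 (-0.28, adjusted p 0.0244), named here after their values were seen, were the others. Trap1 and Grpel1 share exon sequence with Dnase1 and Tada2b, and the Trap1 call held in 5 of 10 fits that left out 1 animal. Of 15 chaperone genes of the endoplasmic reticulum, 1 was called, Hspa13 (0.49, adjusted p 0.0152). Of 13 genes of the TRiC chaperonin and prefoldin, which fold actin and tubulin, 0 were called by edgeR, 1 at an unadjusted p below 0.05, and 1 each with DESeq2 and voom.

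**Figure D5:**
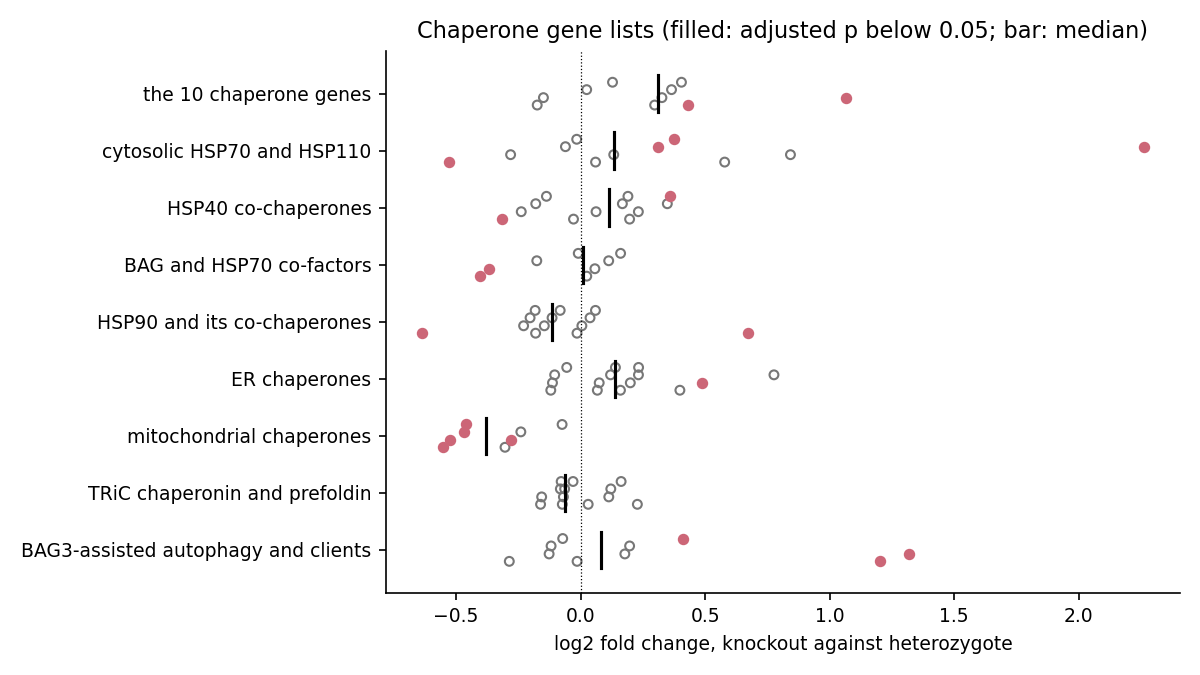
log2 fold change, knockout against heterozygote, of each tested gene in the 10 chaperone genes and 8 further lists, with filled points for adjusted p below 0.05 and a bar at each median. The 10 chaperone genes have a median of 0.31, the mitochondrial chaperones -0.38, and Hspa1l (2.26) is the far point among cytosolic HSP70 genes.

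Genes around BAG3-assisted autophagy and its clients had 3 of 10 called, all higher, where 10.2% of all tested genes were called higher. Flnc, the filamin C gene whose product is a client of BAG3 and a binding partner of HSPB7, had 361, 292, 304, 208 and 204 CPM in the heterozygotes and 765, 796, 689, 577 and 592 CPM in the knockouts. The groups were apart, by 1.32 on the log2 scale (SE 0.159, edgeR adjusted p 6.00e-05). Synpo2l, a Z-disc relative of the BAG3 partner synaptopodin-2, rose 2.30-fold, from 244 ± 35.4 to 562 ± 90.5 CPM (adjusted p 2.66e-05). Sqstm1, the autophagy receptor p62, rose from 399 ± 41.4 to 530 ± 44.1 CPM (0.41 on the log2 scale, adjusted p 0.00758). Synpo2 (-0.29, adjusted p 0.0807), Des (0.20, adjusted p 0.403) and Ttn (-0.07, adjusted p 0.854) were not called, and neither were the autophagosome genes Map1lc3a and Map1lc3b. Of the chaperone and client genes named from these lists as called, Hspa1l, Hspd1, Flnc and Synpo2l stayed called with the endothelial covariate and the others did not. Several of the others had estimates of about the same size there: the Hsp90aa1 log2 fold change was 0.62, the Fkbp4 log2 fold change -0.69 and the Hspa9 log2 fold change -0.43. Other estimates became smaller under some alternative that kept all 10 animals. The smallest were -0.26 for Hspa12b (main fit -0.53), -0.24 for Dnaja2 (-0.32), -0.20 for Trap1 (-0.28) and 0.32 for Sqstm1 (0.41). Why calls were lost was not tested.

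Regulators and relatives showed no calls. Of the heat-shock transcription factors, Hsf1 (-0.09, edgeR adjusted p 0.646) and Hsf2 (0.18, adjusted p 0.519) were tested and Hsf4 was below the filter. Of 5 genes of the SMYD family and the SMYD1 partner Naca, 0 were called. For both lists the count was 0 as well at an unadjusted p below 0.05 and with DESeq2 and voom.

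Collagenase perfusion and sorting can induce stress genes in the hours before lysis, and 12 early-response genes were listed for this. Their sum ran from 789 to 2210 CPM in the heterozygotes, highest in animals 1 and 3, and from 903 to 1526 CPM in the knockouts. Of the 12, 4 were called lower and 0 higher, where 8.64% of all tested genes were called lower. The 4 were Junb (log2 fold change -0.81, edgeR adjusted p 0.0459), Dusp1 (-0.74, adjusted p 0.0193), Ier2 (-0.58, adjusted p 0.0437) and Zfp36 (-0.55, adjusted p 0.0146), the last named after its value was seen. Fos had a larger estimate and was not called (-1.04, adjusted p 0.147). The calls of Junb, Dusp1 and Ier2 held in 2, 9 and 3 of 10 fits that left out 1 animal. Over the 10 animals, deviations of this list had r = 0.55 with Hspb1, 0.48 with Unc45b, 0.43 with Bag3, 0.35 with Hspb8 and 0.11 with Hspb7. The other members ran from -0.07 (Smyd1) to 0.20 (Hspb6). Mean deviations of the 9 cardiomyocyte markers had r of 0.69 with Smyd1 and Unc45b, 0.59 with Hspb7 and 0.55 with Hspb6 and Hspb8. Their r was 0.53 with Hspb2, 0.47 with Hspb1, 0.31 with Bag3, 0.25 with Hspb3 and 0.23 with Cryab. What the members share with either list was not tested. With the mean of the early-response list as a covariate, an alternative chosen after seeing the data, Hspb7 and Bag3 stayed called and Hspb1 passed the threshold (0.51, adjusted p 0.0397).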

How the data were processed

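The deposited values are raw read counts per gene. The deposited file's header gives featureCounts 1.5.1 on 4 threads with no other option, against a UCSC mm10 annotation archived in 2012, while the submitters' processing notes name Subread 1.5.2 and STAR 2.5.3a. Those defaults ignore strand and leave out reads of several places or genes. The deposited exon length column (other, in bases) gave levels per kb. A further 4 count columns match no sample and were not used.

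Genes were filtered with edgeR's filterByExpr (minimum count 10, minimum total 15), scaled by TMM and compared with the quasi-likelihood test of edgeR 4.0.16 in R 4.3.3 over all 10 samples without covariates. The standard error is the log2 fold change over the square root of F. P-values were adjusted by Benjamini-Hochberg over 11870 genes, and called means below 0.05. Log2 CPM used a prior count of 1. Ratios were tested by exact permutation over 252 arrangements. The 20 replicate pairs differed by a chi-square of 10.8 to 37.5 per degree of freedom, so none is a copy of another. Simulated counts for 11870 genes of this comparison gave 84.9% of 2-fold and 100% of 4-fold changes called, with 2.67% of calls false. Only 196 of the genes tested there were changed, where 2241 were called in the data, and these rates depend on that number. Changes below 2-fold were not simulated. The members and lists were chosen with earlier results of these data known. Named genes are the 10 members, Actn2, at most the 3 largest rises and 3 largest falls called in each list at a mean of at least 10 CPM, and the 2 genes most like each called member. Genes named beyond this rule were chosen after their values were seen. Alternatives were other scalings and filters, a replicate block, covariates, DESeq2 1.42.0, voom (limma 3.58.1), sva 3.50.0, thinned libraries and leaving out each animal.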

Additional observations from a re-analysis of the deposited data

Results flagged for a closer look

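Each member, Actn2, both ratios and the total counts were screened in each genotype, 28 groups of 5 values in all. In 2 of them 1 animal lay apart, by more than 0.71 of its group's range, where chance gives about 1 in 20, or 1.4. Bag3 reached 8.074 log2 CPM in heterozygote 3, with 7.737 as the next value and a gap of 0.785 of the range. Bag3 was called with and without that animal. The library of heterozygote 1 was the deepest, at 25237696 counts, and 10309615 was the next value among heterozygotes, a gap of 0.870. Hspb7 and Bag3 stayed called without it.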

How the results depend on the processing

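Each member was refitted under 23 alternatives. Of the 230 combinations of member and alternative, 219 kept direction and side of the threshold. Hspb7 was called in all 23 and Bag3 in 22, the exception being the endothelial covariate. The Unc45b log2 fold change turned negative with upper-quartile scaling (-0.00262), the endothelial covariate (-0.0116) and without heterozygote 4 (-0.0288) or 5 (-0.00456), and reached 0.0715 without heterozygote 2. Members called, all of them higher, numbered 4 with library totals alone (Hspb1, Hspb7, Bag3 and Smyd1), 1 with the endothelial covariate, and 2 to 3 when 1 animal was left out. All genes called numbered 927 with the endothelial covariate and 1699 to 2258 without 1 animal. Other chaperones called higher and lower numbered 10 and 6 with library totals alone, where 68.9% of all calls were higher in place of 54.3%, and 1 and 1 with the endothelial covariate. Those higher numbered 10 with voom and 3 to 7 without 1 animal. The causes were not tested.

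Replicate numbers do not pair the animals by any label, and deviations of same-numbered animals correlated at -0.06 to 0.19, with 3 of 5 pairs over 0.1 and 4 of 10 animals closest to their own number. With the replicate block, 2182 genes were called and the Hspb1 log2 fold change passed (0.36, edgeR adjusted p 0.04915). Paired sign flips, a replicate block for the ratios, gave -0.276 for Hspb2 to Cryab and 0.579 for Bag3 to Hspb8, each with an adjusted exact p of 0.0625, the smallest that 32 flips allow. Leaving out 1 animal gave -0.335 to -0.189 and 0.479 to 0.644. Every member had at least 136 counts in each sample, the fewest for Hspb3.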
